A study of Mus musculus with 14 samples.

Results

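Futile cycling of creatine in brown fat was followed at the level of RNA through 7 genes: Gatm, Gamt, Slc6a8, Ckb, Ckmt1, Ckmt2 and Alpl. They were chosen by name as the genes of creatine synthesis, uptake and cycling, and all 7 were found by Ensembl identifier among the 35275 genes of the table. Of the 7, 6 passed the filter on low values and entered the test over 13079 genes. The exception was Ckmt1, which never reached 1 FPKM (fragments per kilobase of transcript, scaled to library size).

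Brown adipose tissue makes heat mainly through UCP1, which lets protons leak across the inner mitochondrial membrane. A parallel route runs through creatine: kinases charge it to phosphocreatine at the mitochondrion, and a phosphatase releases the phosphate again, so that ATP is spent and respiration is driven with no net work. Cells obtain creatine by making it from arginine, glycine and a methyl group, or by taking it up from blood.

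The 14 samples were brown adipose tissue of 8-week-old C57BL/6 mice, sequenced as total RNA of homogenized tissue. All 14 animals carried floxed Lrpprc alleles (LrpprcFF), and the knockouts also carried Ucp1-Cre, a recombinase driven by the promoter of the brown adipocyte gene Ucp1. Lrpprc encodes a protein that stabilises mitochondrial messenger RNAs. Controls were LrpprcFF animals without Cre. The mice were housed at 22 °C (room temperature, 4 controls and 4 knockouts) or at 30 °C (thermoneutrality, 3 controls and 3 knockouts). The labels give each animal its own identifier, name no litter or batch, and call the cells brown adipocytes without describing their isolation. Other cells of the tissue keep Lrpprc, and fewer cells of a type cannot be told apart from less RNA per cell in such samples.

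Depth was 15.9 to 21.3 M fragments per library. Lrpprc was 25.3 to 57.3 scaled FPKM in the 7 controls and 4.97 to 11.2 in the 7 knockouts, without overlap. Skeletal muscle RNA differed widely between animals: the summed level of 15 muscle markers ran from 92.1 to 16354 scaled FPKM. The sexes are not labelled. Xist, expressed from the inactive X chromosome, was 9.70 to 15.3 in the 6 animals at 30 °C and at most 0.0139 in the 8 at 22 °C, and the Y-linked gene Ddx3y was 16.3 to 23.9 at 22 °C and at most 0.0242 at 30 °C. Housing temperature and sex-linked expression therefore cannot be told apart in any comparison between temperatures below. Identifiers of 2 of the 4 controls at 22 °C (replicates 3 and 4) begin with the letter R and those of all other animals with E.

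Promoter sequences are shown for Ckb, Gamt and Gatm, members whose RNA changed with temperature or genotype below. Each is the 250 bases before the RefSeq gene start, 5′ to 3′ on the gene's strand, with capitals marking TATA, CCAAT and GC boxes, whose letters are spelled out beneath, or their reverse complements. The Ckb window lies at chr12:111672339-111672588 (minus strand) of GRCm38.p6, that of Gamt at chr10:80261013-80261262 (minus strand) and that of Gatm at chr2:122611278-122611527 (minus strand).
Ckb: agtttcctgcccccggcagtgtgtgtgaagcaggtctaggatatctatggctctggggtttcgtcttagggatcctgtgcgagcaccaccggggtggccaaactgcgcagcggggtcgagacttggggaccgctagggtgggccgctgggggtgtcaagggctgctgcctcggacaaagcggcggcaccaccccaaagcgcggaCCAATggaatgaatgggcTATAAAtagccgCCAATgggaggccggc
Gamt: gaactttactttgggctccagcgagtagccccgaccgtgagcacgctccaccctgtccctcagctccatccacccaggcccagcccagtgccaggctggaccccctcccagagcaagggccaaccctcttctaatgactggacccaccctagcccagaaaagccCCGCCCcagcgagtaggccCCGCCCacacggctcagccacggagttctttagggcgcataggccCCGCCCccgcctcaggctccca
Gatm: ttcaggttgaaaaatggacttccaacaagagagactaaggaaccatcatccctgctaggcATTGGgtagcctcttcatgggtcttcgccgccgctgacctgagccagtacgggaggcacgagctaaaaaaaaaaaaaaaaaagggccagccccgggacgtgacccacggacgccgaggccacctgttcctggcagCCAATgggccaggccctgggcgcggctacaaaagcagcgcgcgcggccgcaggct

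These 3 windows differ in their core elements. Ckb has a TATA box 28 to 23 bases before its start, with a CCAAT box on either side of it at 46 to 42 and 16 to 12 bases. Gamt has no TATA box match and carries 3 GC boxes, all on the other strand. Gatm has 2 CCAAT boxes, at 190 to 186 (other strand) and 55 to 51 bases. Over 32536 distinct RefSeq mouse windows of the same length, searched on both strands, 12.3% held TATAAA, 33.8% CCAAT and 33.0% GGGCGG. The full cAMP response element TGACGTCA (1.56% of windows) and the ATF4 composite core TGATGNAA (3.4%) matched none of the windows of the 6 members with an entry, and the oestrogen-related receptor element AAGGTCA (4.09%) matched 1 of the 2 windows of Ckmt1. The GC content of the windows was 62.8% in Ckb, 66.8% in Gamt and 59.2% in Gatm, against a median of 52.4%. Such matches describe letters and show no binding.

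Values below are FPKM divided by a scaling factor for each library (scaled FPKM), and fold changes are on the scale of log2(scaled FPKM + 1), which understates changes of low genes. An adjusted p under 0.05 over the 13079 genes of a comparison counts as a change (limma, two-sided, Benjamini-Hochberg).

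Creatine kinase B (Ckb, ENSMUSG00000001270, chromosome 12), the cytosolic brain-type kinase that is also found in brown fat mitochondria, had the highest mean of the 7 genes in every group. In controls it was 24.6, 34.4, 30.6 and 46.1 scaled FPKM at 22 °C and 142, 211 and 119 at 30 °C. In knockouts it was 99.8, 80.8, 36.0 and 33.0 at 22 °C and 184, 304 and 239 at 30 °C. Every animal at 22 °C lay below every animal at 30 °C, in either genotype. The log2 fold change of 22 °C over 30 °C was -2.18 in controls (SE 0.36, adjusted p = 0.00108), or 4.52-fold lower at 22 °C, and -2.07 in knockouts (SE 0.36, adjusted p = 0.000594), or 4.20-fold lower. Ucp1 went the other way, with log2 fold changes of 1.35 (SE 0.34, adjusted p = 0.00824) and 2.63 (SE 0.34, adjusted p = 0.000101).

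The knockouts at 22 °C split into 2 animals with Ckb of 80.8 and above and 2 at 36.0 and below, inside the control range of 24.6 to 46.1. The knockout effect on Ckb was 0.74 at 22 °C (SE 0.34, 95% confidence interval 0.01 to 1.46, adjusted p = 0.309) and 0.63 at 30 °C (SE 0.39, interval -0.21 to 1.47, adjusted p = 0.320). Neither passed the test. The difference between these effects was 0.11 (interval -1.001 to 1.211, adjusted p = 0.958). With the FPKM as deposited, without library scaling, the effect at 22 °C was 1.03 (adjusted p = 0.0497), while the median gene shifted by 0.24 in that comparison.

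**Figure D1:**
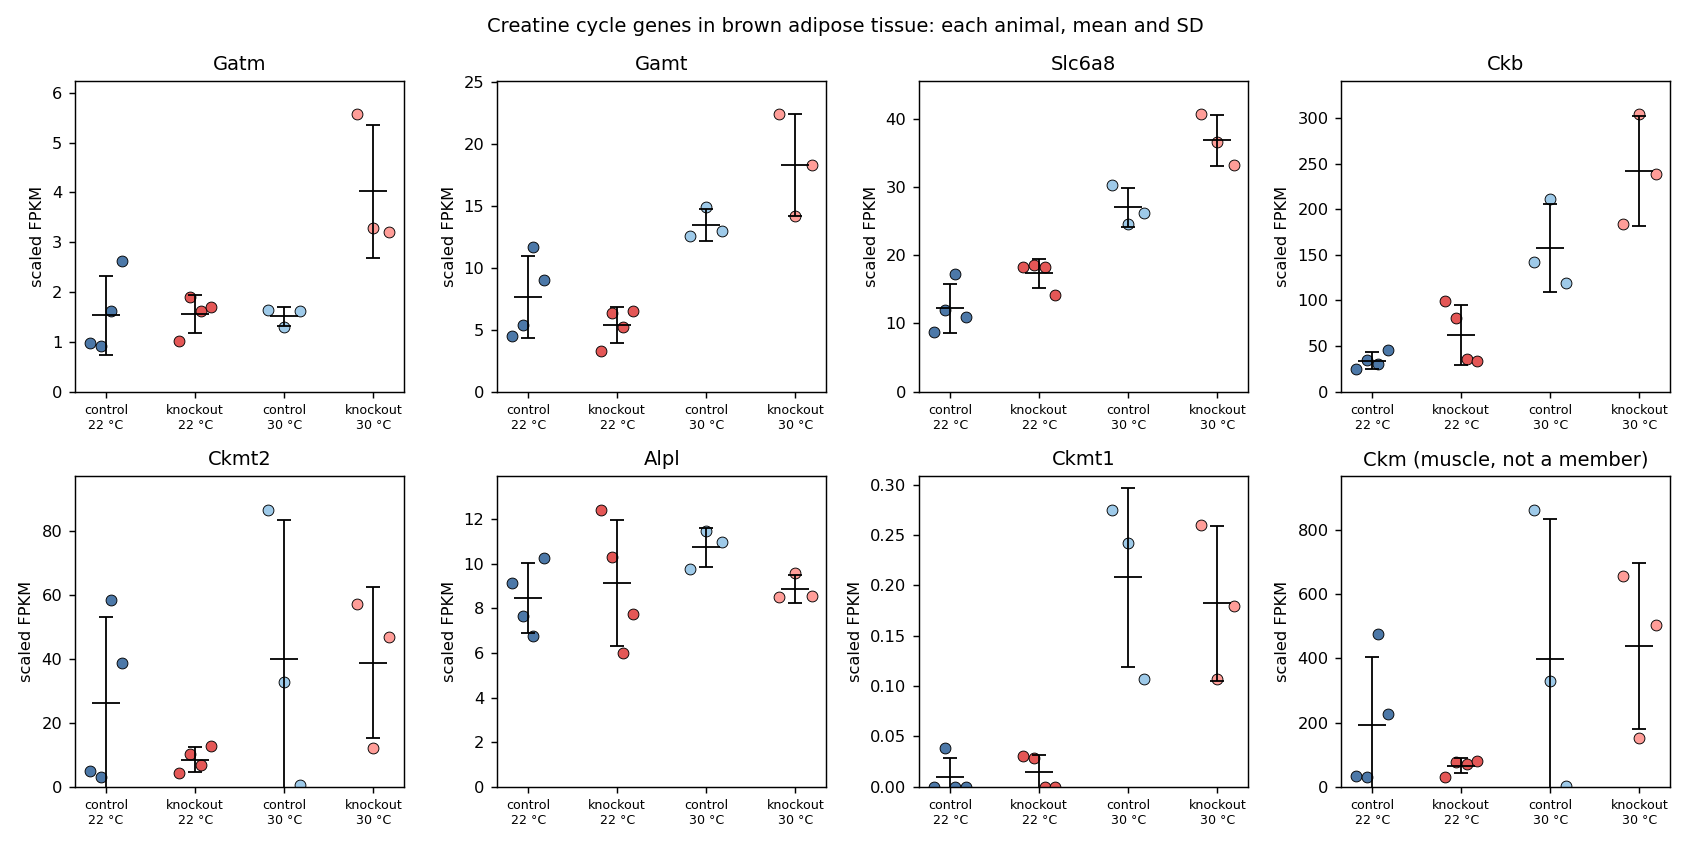
Level of the 7 creatine cycle genes, and of the muscle gene Ckm for comparison, in scaled FPKM (vertical axes, each starting at 0). Points are animals, dashes means and bars 1 SD, cut at 0, for 4, 4, 3 and 3 animals from left to right. Ckb and Slc6a8 are higher in all animals at 30 °C than in all at 22 °C, whereas Ckmt2 and Ckm spread widely within groups.

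Slc6a8 (ENSMUSG00000019558), the creatine transporter of the plasma membrane, lies on the X chromosome. It was 8.68, 12.0, 17.2 and 11.0 scaled FPKM in controls at 22 °C and 18.3, 18.6, 18.3 and 14.2 in knockouts at 22 °C. At 30 °C it was 30.2, 24.5 and 26.2 in controls and 40.6, 36.6 and 33.2 in knockouts. The means rose in the order control at 22 °C, knockout at 22 °C, control at 30 °C and knockout at 30 °C, and of the neighbours in this order only the first pair overlapped between animals. The temperature change was -1.12 in controls (SE 0.18, adjusted p = 0.000819) and -1.05 in knockouts (SE 0.18, adjusted p = 0.000465), lower at 22 °C by 2.17-fold and 2.07-fold.

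The knockout effect on Slc6a8 was 0.50 at 22 °C (SE 0.16, interval 0.15 to 0.85) and 0.43 at 30 °C (SE 0.19, interval 0.03 to 0.84). Neither passed adjustment over all genes (adjusted p = 0.142 and 0.148). At 22 °C 3 of the 4 knockouts lay above every control, and at 30 °C all 3 did. The single control that overlapped at 22 °C was replicate 3, and without it the effect was 0.67 (adjusted p = 0.0268). Leaving out both controls with R identifiers gave 0.70 (adjusted p = 0.0401), and weighting samples by their quality gave 0.54 (adjusted p = 0.0337). The scaling also decided this call: with FPKM as deposited the effects were 0.78 (adjusted p = 0.00952) and 0.72 (adjusted p = 0.0156), against shifts of the median gene by 0.24 and 0.31. With equal totals over nuclear genes the effect at 30 °C was 0.58 (adjusted p = 0.0482), against a shift of 0.19. Other settings lowered the effect at 30 °C. It was 0.24 with a correction for transcript GC content (adjusted p = 0.341) and 0.35 with the macrophage score as a covariate (adjusted p = 0.997). At 22 °C the effect was 0.49 and 0.48 with these settings. The macrophage fit had an SE of 0.38 at 30 °C, where macrophage marker sums did not overlap between genotypes.

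Gatm (ENSMUSG00000027199, chromosome 2) encodes the mitochondrial amidinotransferase that opens creatine synthesis by joining arginine and glycine into guanidinoacetate. Its level was low in 3 groups: 0.968, 0.906, 1.62 and 2.63 scaled FPKM in controls and 1.02, 1.89, 1.62 and 1.69 in knockouts at 22 °C, and 1.63, 1.29 and 1.61 in controls at 30 °C. The 3 knockouts at 30 °C stood apart at 5.57, 3.29 and 3.21. Gatm rose in knockouts at 30 °C, by 0.97 on the log2 scale (SE 0.24, adjusted p = 0.0181), with a ratio of means of 2.66, and in knockouts it was lower at 22 °C than at 30 °C by 1.94-fold (log2 -0.95, SE 0.23, adjusted p = 0.00366). In controls the temperature difference was -0.04 (interval -0.52 to 0.45), and the knockout effect at 22 °C was 0.05 (interval -0.40 to 0.50). The test of the difference between the 2 knockout effects gave -0.92 (SE 0.32, unadjusted p = 0.0126, adjusted p = 0.261), so an effect limited to 30 °C was not shown.

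Macrophage RNA was also highest in knockouts at 30 °C. Mean Gatm was 1.53 and 1.56 scaled FPKM in controls and knockouts at 22 °C and 1.51 in controls at 30 °C. The summed level of 12 macrophage markers was 69.1 to 104 in controls and 114 to 242 in knockouts at 22 °C, 148 to 475 in controls at 30 °C and 718 to 2044 in knockouts at 30 °C, where 11 of the 12 markers rose. Of all genes, 8.82% were called higher in knockouts at 30 °C. With the macrophage score as a covariate, the Gatm effect at 30 °C was 0.27 (SE 0.42 against 0.24 in the main fit, adjusted p = 0.997). The marker sums did not overlap between genotypes at 30 °C, so this fit separates the score from genotype only poorly. A part of macrophages in the Gatm result was not tested. Without replicate 1 of the knockouts at 30 °C, which had the highest Gatm, the effect was 0.76 (adjusted p = 0.0876). Without replicate 2 of the controls at 30 °C it was 0.90 (adjusted p = 0.0717).

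Gamt (ENSMUSG00000020150, chromosome 10), the methyltransferase that turns guanidinoacetate into creatine, was 4.44, 5.38, 11.6 and 9.03 scaled FPKM in controls and 3.31, 6.33, 5.24 and 6.47 in knockouts at 22 °C. At 30 °C it was 12.5, 14.9 and 12.9 in controls and 22.4, 14.1 and 18.3 in knockouts. All animals at 22 °C lay below all animals at 30 °C. Gamt was lower at 22 °C by 1.77-fold in controls (log2 -0.82, SE 0.27, adjusted p = 0.0299) and by 3.06-fold in knockouts (log2 -1.61, SE 0.27, adjusted p = 0.000475).

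The 2 highest Gamt values among controls at 22 °C belonged to the animals with R identifiers, which also had the most muscle RNA of that group, with marker sums of 8492 and 5029 against 800 and 617. Without these 2 animals the temperature difference in controls was -1.29 (adjusted p = 0.00139). The same call in controls was lost in 5 of the 7 fits that left out 1 animal (adjusted p between 0.0576 and 0.0962). Knockout effects on Gamt were -0.39 at 22 °C (interval -0.94 to 0.15, adjusted p = 0.488) and 0.40 at 30 °C (interval -0.23 to 1.02, adjusted p = 0.415). They differed by -0.79 (interval -1.62 to 0.04, adjusted p = 0.413).

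Alpl (ENSMUSG00000028766, chromosome 4), the tissue-nonspecific alkaline phosphatase that hydrolyses phosphocreatine in thermogenic fat, had group means between 8.45 and 10.7 scaled FPKM. It was 9.12, 7.67, 6.74 and 10.3 scaled FPKM in controls and 12.4, 10.3, 6.02 and 7.75 in knockouts at 22 °C, and 9.75, 11.5 and 11.0 in controls and 8.51, 9.60 and 8.53 in knockouts at 30 °C. At 30 °C the 3 knockouts lay just below the 3 controls. No Alpl comparison passed the test: knockout effects were 0.07 at 22 °C (interval -0.31 to 0.45) and -0.25 at 30 °C (interval -0.69 to 0.19, adjusted p = 0.473), and temperature differences were -0.32 in controls (interval -0.73 to 0.09) and -0.01 in knockouts (interval -0.42 to 0.41).

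**Figure D2:**
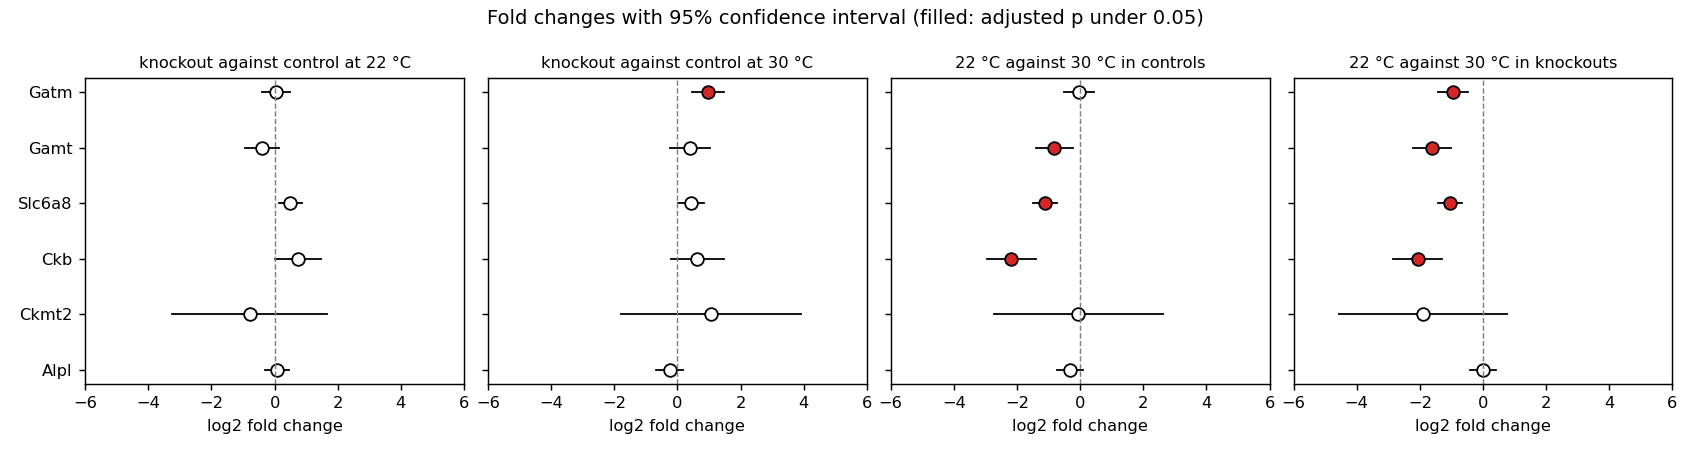
Log2 fold changes (horizontal axes) of the 6 creatine cycle genes tested, in 4 comparisons, with 95% confidence intervals from limma as lines. Filled points have an adjusted p under 0.05: Gatm in knockouts at 30 °C, and Ckb, Slc6a8 and Gamt in both temperature comparisons with Gatm added in knockouts; the Ckmt2 intervals span several log2 units.

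Ckmt2 (ENSMUSG00000021622, chromosome 13) encodes the sarcomeric mitochondrial creatine kinase, which muscle makes in quantity. In controls it was 4.95, 2.995, 58.3 and 38.9 scaled FPKM at 22 °C and 86.7, 32.6 and 0.387 at 30 °C. In knockouts it was 4.20, 10.3, 6.69 and 12.8 at 22 °C and 57.3, 12.2 and 47.0 at 30 °C. The groups overlapped in all 4 comparisons. The knockout effects of -0.79 at 22 °C (SE 1.15, adjusted p = 0.782) and 1.06 at 30 °C (SE 1.32, adjusted p = 0.657) were smaller than their standard errors. The temperature differences were -0.06 in controls (interval -2.72 to 2.61) and -1.91 in knockouts (interval -4.57 to 0.76, adjusted p = 0.210). When the 2 knockout groups were fitted alone, the latter had an adjusted p of 0.0146.

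Ckmt2 followed muscle RNA across animals. Ckm, the muscle creatine kinase, ranged over 607-fold from 1.42 to 864 scaled FPKM, and Ckmt2 over 224-fold. Ckmt2 was 8.07% to 17.2% of Ckm in 13 animals and 27.2% in the other, replicate 3 of the controls at 30 °C, which had the least muscle RNA (Ckm 1.42, Ckmt2 0.387). Brown fat nearly free of muscle RNA thus held less than 1 scaled FPKM of Ckmt2 in this 1 animal, beside Ckb at 119 and Slc6a8 at 26.2. With the muscle score as a covariate, the Ckmt2 differences were -0.12 (SE 0.20) and -0.21 (SE 0.24) between genotypes at 22 °C and 30 °C, and -0.25 (SE 0.22) and -0.17 (SE 0.23) between temperatures in controls and knockouts, none of them called. The temperature difference in controls was thus larger than without the covariate, and the other 3 were smaller in size. The same covariate left Ckb at -2.18 and -2.03, Slc6a8 at -1.13 and -0.97 and Gamt at -0.85 and -1.42 between temperatures in controls and knockouts, all called.

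**Figure D3:**
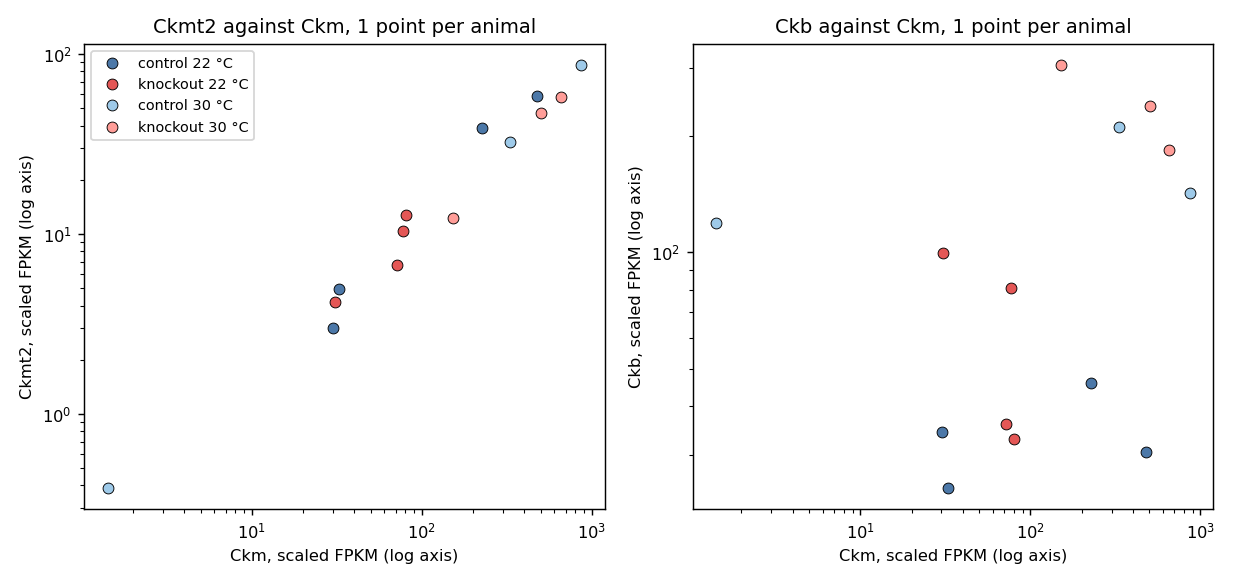
Ckmt2 (left) and Ckb (right) against the muscle creatine kinase Ckm, in scaled FPKM on log axes, with 1 point per animal coloured by group. Ckmt2 lies at 8.07% to 17.2% of Ckm in 13 of 14 animals, whereas Ckb is 119 scaled FPKM in the animal with the least Ckm.

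Within the kinases of the cycle, Ckmt2 made up 34.0% ± 26.5 (SD, n = 4) of the summed Ckb, Ckmt1 and Ckmt2 in controls and 14.7% ± 9.99 (SD, n = 4) in knockouts at 22 °C, and 17.2% ± 19.0 (SD, n = 3) and 14.7% ± 10.05 (SD, n = 3) at 30 °C. A share within a library does not depend on the scaling. The genotype difference was -19.3 percentage points at 22 °C (exact two-sided permutation p = 0.257, smallest possible 0.0286) and -2.50 at 30 °C (exact permutation p = 1, smallest possible 0.1). Without the 2 controls with R identifiers the first became 2.37 points, so its direction rested on these animals. Their Ckmt2 shares were 65.6% and 45.8%, at muscle marker sums of 8492 and 5029. In the control at 30 °C with the least muscle RNA (sum 92.1) the share was 0.323%. The share is therefore not that of brown adipocytes alone. Temperature differences were 16.9 points in controls (exact permutation p = 0.343, smallest possible 0.0571) and 0.07 in knockouts (exact permutation p = 0.971).

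Ckmt1 (ENSMUSG00000000308, chromosome 2), the ubiquitous mitochondrial kinase, was close to absent. Converted back to fragments, its values came to 3 in all 8 libraries at 22 °C together, with 5 libraries at 0 and none above 1, and to 38 in the 6 libraries at 30 °C, with 3 to 10 in each. The highest Ckmt1 level was 0.275 scaled FPKM, and 3 fragments would be 0.0869 to 0.116 FPKM as deposited. In a fit with no filter on low values (24190 genes) the differences between temperatures were -0.26 in controls (SE 0.05, adjusted p = 0.00456) and -0.22 in knockouts (SE 0.05, adjusted p = 0.00560), and knockout effects were 0.01 and -0.03. The lowest Ckb value in any animal was 24.6.

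Counted over the 6 genes tested, none was called between genotypes at 22 °C (limma; 2 had an unadjusted p under 0.05), where 1.97% of all genes were called. At 30 °C 1 was called, Gatm, against 14.1% of all genes in either direction and 8.82% higher. Between temperatures 3 were called in controls and 4 in knockouts, all lower at 22 °C, where 38.8% and 51.1% of all genes were called and 20.6% and 29.4% were called lower. Groups did not overlap for 0, 3, 3 and 4 of the 6 in these 4 comparisons, against 9.38%, 36.8%, 43.5% and 55.8% of all genes. For the difference between the knockout effects, 0 of 6 were called (limma; 1 had an unadjusted p under 0.05), beside 0% of all genes (1694 with an unadjusted p under 0.05). The genotype counts are near the background. In both directions together, the temperature counts of 3 and 4 of 6 are also not far from the shares of all genes. In the temperature comparisons, which changed a large part of all genes, the median log2 fold change was -0.57 over the members and -0.05 over all genes in controls, and -1.33 and -0.07 in knockouts.

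Base composition moved with the temperature differences. Across all genes the log2 fold change of 22 °C over 30 °C fell with transcript GC content, with Spearman's rho of -0.58 in controls and -0.49 in knockouts over 13014 genes of the same libraries. The median over the 592 genes with at least 60% GC was -0.577 in controls and -0.848 in knockouts. Over the members it was -0.57 and -1.33. Of the members tested, 4 lie toward the GC-rich end, with 61.7% for Ckb, 59.7% for Gamt, 56.8% for Slc6a8 and 56.5% for Alpl. Ckmt2, at 50.5%, is near the median of 50.1%, and Gatm is GC-poor at 43.2%. After a correction for GC content in each library, Ckb stayed lower at 22 °C, by -1.58 in controls (adjusted p = 0.00821) and -1.19 in knockouts (adjusted p = 0.0148). Slc6a8 stayed lower, by -0.70 (adjusted p = 0.00668) and -0.46 (adjusted p = 0.0239). Gamt kept its call in knockouts at -0.84 (adjusted p = 0.00988), but not in controls, where it was -0.29 (adjusted p = 0.373). Gatm, the member lowest in GC, stayed at 0.90 between genotypes at 30 °C (adjusted p = 0.0244), and Alpl became higher at 22 °C in knockouts, at 0.56 (adjusted p = 0.0444).

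**Figure D4:**
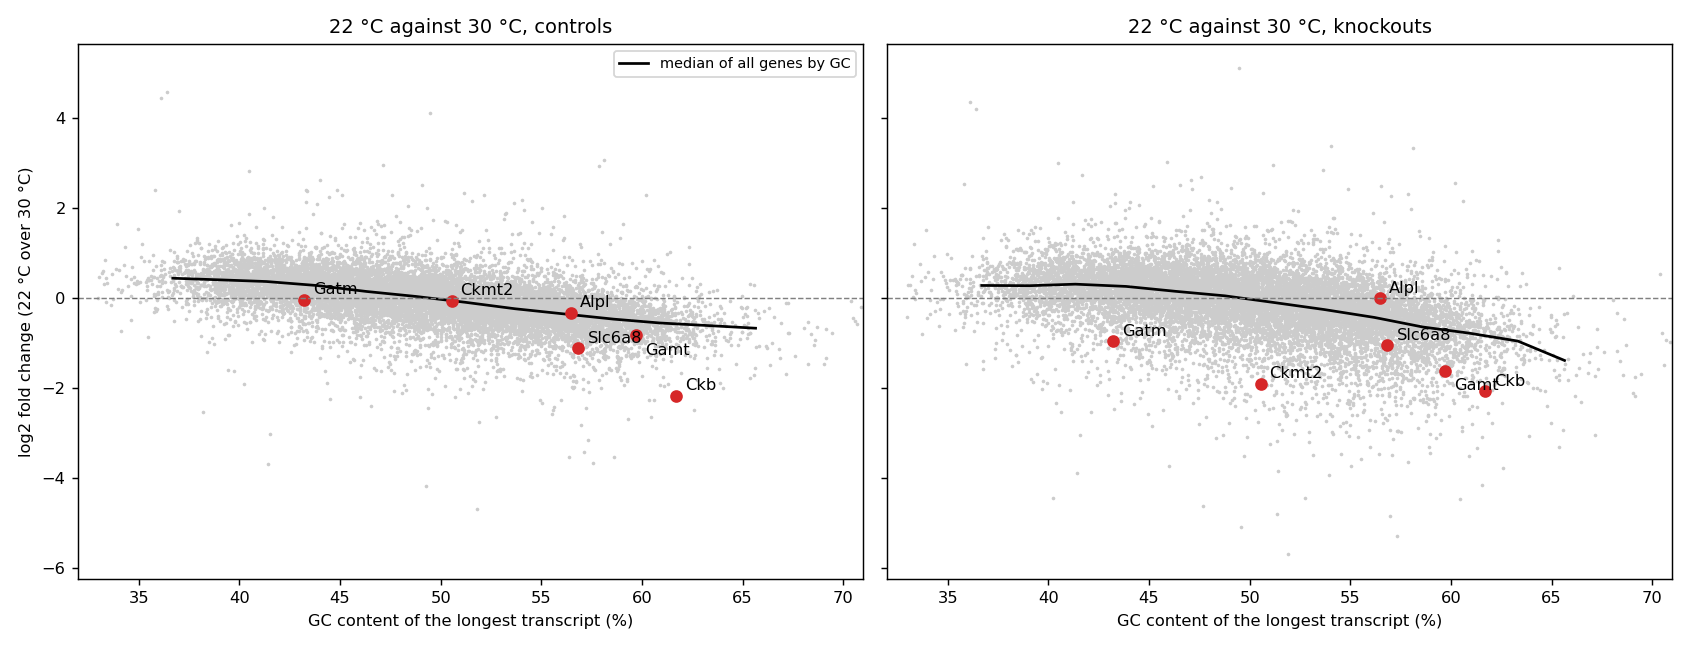
Log2 fold change of 22 °C over 30 °C (vertical axes) against transcript GC content in percent (horizontal axes) for all genes tested (grey), in controls (left) and knockouts (right). Black lines are medians of all genes by GC and red points the 6 creatine cycle genes; Ckb and Slc6a8 lie below the line in both genotypes, and Alpl lies above it in knockouts.

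Adding the macrophage score changed temperature calls in both genotypes. In controls, Ckb at -2.33 (adjusted p = 0.0140) and Slc6a8 at -1.08 (adjusted p = 0.0168) stayed called with the score as a covariate, while Gamt lost its call. In knockouts none of the 4 calls was kept: Ckb was -2.46 with a larger SE of 0.89 (adjusted p = 0.384), Slc6a8 -0.95, Gamt -0.79 and Gatm -0.10. Macrophage marker sums did not overlap between temperatures in either genotype, so these fits separate the score from temperature only poorly.

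Markers of nerve and Schwann cells and of fibroblasts also differed between temperatures, and more of them were called in knockouts than in controls. The difference between the knockout effects, which equals that between the temperature effects, was called for none of them. In limma, 3 of 7 and 4 of 9 had an unadjusted p under 0.05 for this difference. Over all genes, 20.6% were called lower at 22 °C in controls and 29.4% in knockouts, and the counts in controls are near that share. Of 7 nerve and Schwann cell markers tested, 2 were lower at 22 °C in controls and 6 in knockouts, with medians of -0.39 and -0.99. Sox10, a Schwann cell transcription factor, was lower by -1.11 in controls (SE 0.30, adjusted p = 0.0111) and -1.79 in knockouts (SE 0.30, adjusted p = 0.000417). The summed level of the 11 listed markers was 89.8 to 114 at 22 °C and 93.8 to 143 at 30 °C in controls. In knockouts the sums were 70.8 to 97.6 and 121 to 205. The neuronal genes Nefl and Nefm had group means of at most 0.0554, but Uchl1 and Tubb3 of the same list had higher means at 30 °C. Mean Uchl1 was 0.375 at 22 °C and 1.35 at 30 °C in controls, and 0.32 and 3.0025 in knockouts. Mean Tubb3 was 0.109 and 0.524 in controls, and 0.0583 and 0.886 in knockouts. Means of Pmp22 in controls (40.4 and 37.7) and S100b in knockouts (27.2 and 26.4) went the other way. Of 9 fibroblast and progenitor markers tested, 2 were lower at 22 °C in controls and 7 in knockouts, with medians of -0.42 and -1.21. Their sums were 226 to 312 at 22 °C and 324 to 384 at 30 °C in controls, and 217 to 387 and 533 to 1080 in knockouts. The part of these cells in the results for Ckb, Slc6a8, Gamt and Gatm was not tested.

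The related groups of genes that follow were compared by their median log2 fold change, which over all genes was 0.002 and 0.06 between genotypes at 22 °C and 30 °C and -0.05 and -0.07 between temperatures in controls and knockouts. For arginine and glycine supply these medians were -0.13, -0.13, -0.20 and -0.25. Of all genes, 1.97% and 14.1% were called between genotypes at 22 °C and 30 °C. Between temperatures 38.8% were called in controls and 51.1% in knockouts, and a list whose count is near these shares does not stand out. Of 14 tested genes for arginine and glycine, 2 were higher and 1 lower in knockouts at 22 °C and again 2 and 1 at 30 °C. Shmt2, which makes glycine from serine in mitochondria, rose in knockouts at 22 °C from 10.3 to 15.9 mean scaled FPKM (log2 0.59, SE 0.11, adjusted p = 0.0173), while Gcat, a glycine-forming enzyme of threonine breakdown, fell from 8.61 to 5.87 (log2 -0.48, SE 0.11, adjusted p = 0.0472). At 30 °C Odc1, the ornithine decarboxylase of polyamine synthesis, rose from 23.9 to 41.1 (log2 0.75, SE 0.15, adjusted p = 0.00662), and Gcsh, the carrier protein of glycine cleavage, fell from 82.8 to 49.1 (log2 -0.74, SE 0.15, adjusted p = 0.00669). Between temperatures 2 were higher and 2 lower at 22 °C in controls, and 3 and 4 in knockouts. Shmt2 shared the direction of Ckb in controls (log2 -0.97, SE 0.12, adjusted p = 0.000254), whereas Dld, a subunit of glycine cleavage and of several dehydrogenases, was higher at 22 °C in both genotypes (log2 0.71 and 1.18).

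Methyl donor genes, which feed Gamt with S-adenosylmethionine, had medians of 0.13, 0.02, 0.05 and 0.11. None of 10 was called at 22 °C between genotypes (limma; 2 had an unadjusted p under 0.05). Between temperatures 2 were higher and 1 lower at 22 °C in controls, and 3 were higher in knockouts. Adk, which clears the adenosine left by methylation, was higher at 22 °C in controls and knockouts (log2 0.53 and 0.71), opposite to Gamt, and Ahcyl2 was lower in controls (log2 -1.10, SE 0.25, adjusted p = 0.00537).

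The mitochondrial partners of creatine kinase, the carriers and pores that pass ATP and phosphocreatine, held 8 tested genes with medians of -0.02, -0.11, 0.13 and 0.15. None was called between genotypes at 22 °C or 30 °C or between temperatures in controls (limma; 1, 2 and 2 had an unadjusted p under 0.05). In knockouts 3 were higher at 22 °C and 1 lower. Immt, the cristae junction protein, was the largest (log2 0.91, SE 0.20, adjusted p = 0.00279), and the ATP/ADP carriers parted, with Slc25a4 at -0.64 (adjusted p = 0.0479) and Slc25a5 at 0.41 (adjusted p = 0.0252). Slc25a4 is also the main such carrier of muscle, and muscle marker sums were 726 to 1866 in knockouts at 22 °C and 2475 to 10158 at 30 °C. A part of muscle RNA in the Slc25a4 result was not tested.

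Among 6 tested phosphatases and phosphate genes, which include no member, with medians of 0.30, 0.09, -0.27 and -0.07, none was called between genotypes (limma; 2 had an unadjusted p under 0.05 at either temperature). Phospho1, a phosphatase of phosphocholine and phosphoethanolamine, was lower at 22 °C in knockouts (log2 -0.88, SE 0.30, adjusted p = 0.0264), with means of 3.25 and 6.39 scaled FPKM. Lhpp, a histidine and pyrophosphate phosphatase, was lower at 22 °C in both genotypes (log2 -0.96 and -0.72), and Phospho2 was higher in both (log2 0.57 and 0.80). In both directions together, 2 were called in controls and 3 in knockouts.

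Of 11 tested adrenergic and G protein genes, the route by which cold reaches brown fat, with medians of 0.01, -0.31, 0.08 and -0.13, none was called between genotypes at 22 °C (limma; 1 had an unadjusted p under 0.05) and 2 were at 30 °C. There Prkaca, the catalytic subunit of protein kinase A, fell from 197 to 127 mean scaled FPKM (log2 -0.64, SE 0.20, adjusted p = 0.0453) and Gnaq, a G protein subunit, rose from 9.97 to 14.4 (log2 0.49, SE 0.10, adjusted p = 0.00687). Between temperatures 3 were higher and 2 lower at 22 °C in controls, and 2 and 2 in knockouts. Adra1a, the alpha-1A receptor, was higher at 22 °C in both genotypes (log2 0.76 and 1.10), as was Prkar2b, a regulatory subunit of protein kinase A (log2 0.77 and 1.36), and the beta-1 receptor Adrb1 was lower in both (log2 -1.30 and -1.48).

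Other heat-producing cycles had medians of -0.02, -0.39, 0.22 and 0.38. Of 11 tested, 0 rose and 4 fell in knockouts at 30 °C: Ucp1 from 806 to 317 mean scaled FPKM (log2 -1.31, SE 0.36, adjusted p = 0.0302), and Dgat2, Acsl1 and Pnpla2 of the triglyceride cycle by -1.19, -0.82 and -0.69. At 22 °C none was called between genotypes (limma; 1 had an unadjusted p under 0.05). Between temperatures 3 were higher and 2 lower at 22 °C in controls, and 5 and 1 in knockouts. Glycerol kinase, Gk, was higher at 22 °C in both (log2 2.84 and 3.004), from 5.12 to 46.3 in controls and from 5.50 to 54.9 in knockouts, while Pnpla2 was lower in controls (log2 -0.62).

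**Figure D5:**
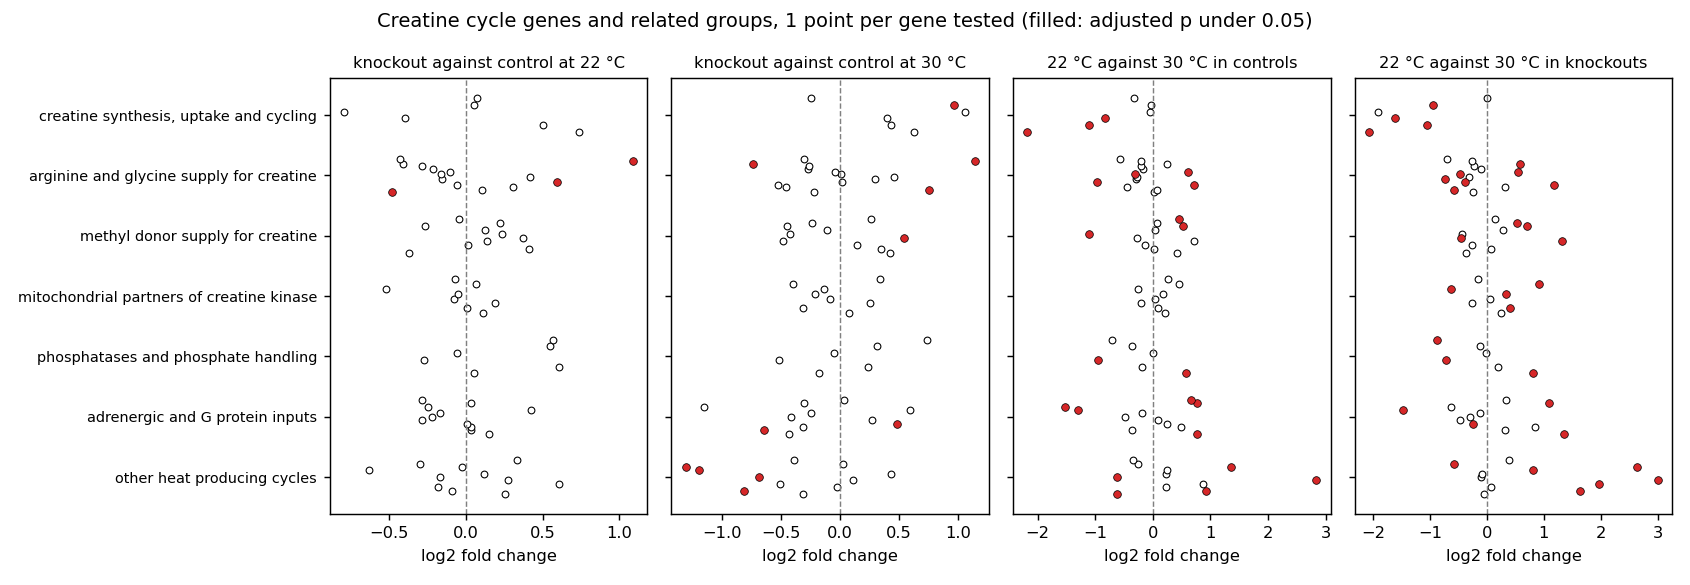
Log2 fold changes (horizontal axes) of the creatine cycle genes and of 6 related groups of genes, with 1 point per gene tested, in 4 comparisons; filled points have an adjusted p under 0.05. In the temperature comparisons the creatine genes lie at or below 0, while the other groups hold genes on both sides. Gatm (-0.04) and Ckmt2 (-0.06) in controls and Alpl (-0.01) in knockouts lie close to 0, and their signs changed in some alternative fits.

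Genes with the most similar profiles were sought among the 8735 genes whose mean reached 5 FPKM in some group, by the mean absolute difference of centred log2 values over the 14 animals. For Ckb they were Nt5dc2 (0.30), Baiap2 (0.34) and Bcl6b (0.35), where Ckb itself deviated by 1.08 on average. For Slc6a8 they were Slc8b1 (0.13), Mfsd13a (0.14) and Irf2bp1 (0.15), with its own deviation at 0.53, and for Gamt Pdgfa (0.16), Arrdc1 (0.17) and Bcl7c (0.18), with 0.64. Ckmt2 was matched by Mybpc1 (0.15), Hrc (0.16) and Rpl3l (0.17), against its own 1.48. For Alpl, which varied by only 0.21, they were Tmem53 (0.10), Dmac2 (0.12) and Itfg2 (0.13). Gatm and Ckmt1 had group means under 5 FPKM and were not searched.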

How the data were processed

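RNA of 14 brown adipose samples was used. The authors deposited 1 table of FPKM per gene and animal. Build mm9 is named per the submitters' processing notes; aligner, counter, annotation and strand are not given in the sources used here. Symbols matched 34490 of 35275 identifiers. Depth was recovered from the steps of low FPKM: 84.2% of low values in 3729 genes lay within 0.05 of whole fragments. Fragment numbers cover counting error only.

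Libraries were divided by their median ratio to the geometric mean over 10049 nuclear genes (factors 0.823 to 0.947 in controls, 1.05 to 1.20 in knockouts). Genes with at least 1 FPKM in 3 samples were kept, and log2 of scaled FPKM plus 1 was fitted with limma 3.58.1 (R 4.3.3; 4 group means, trend), adjusted by Benjamini-Hochberg over 13079 genes, called under 0.05. The script was tested on simulated data. P-values measure the spread between the labelled animals. Members and lists were chosen with earlier results of these data known. Genes beyond the members were named by a rule: up to 4 called genes per list and comparison that changed most and whose mean reached 5 FPKM in some group, and the 3 nearest profiles. Scalings, filters, pseudocount, covariates and left-out animals were alternatives; the macrophage covariate and the GC correction were added after seeing the data. No promoter entry was used for Slc6a8, and 1 result of the methyl donor list is not reported here.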

Additional observations from a re-analysis of the deposited data

Results flagged for a closer look

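Dixon's criterion was applied to 14 groups of 4 animals, 1 for each of the 7 genes in either group at 22 °C, and chance marks about 1 in 20 such groups. It marked 2. Slc6a8 in knockouts at 22 °C had 1 animal, replicate 4, at 14.2 scaled FPKM below the other 3 at 18.3 to 18.6. That animal lay within the control range of 8.68 to 17.2. Ckmt1 in controls at 22 °C had 1 animal, replicate 2, at 0.0382 scaled FPKM while the other 3 were at 0, and this value stands for a single fragment. With the other 3 at 0, any value above 0 would be marked, so the rate of 1 in 20 does not apply to this group.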

How the results depend on the processing

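Alternative fits gave 631 fold changes of single genes in single comparisons. Of these, 563 kept direction and side of the threshold, 16 lost a call, 9 gained one with the same sign and 43 changed sign. The sign changes include Alpl between temperatures in knockouts with the GC correction, which also gained a call. The cause was not tested where none is named. The count of members called in knockouts at 22 °C went from 0 to 2 with FPKM as deposited, 1 with sample weights, 1 without the R controls, and 0 to 1 leaving out single animals (1 without control replicate 3). In knockouts at 30 °C it went from 1 to 0 with a mean of at least 5 FPKM, which removes Gatm from the test, 2 with FPKM as deposited, 2 with equal totals, 0 with the macrophage covariate, and 0 to 1 leaving out single animals. Between temperatures in knockouts the 4 became 0 with the macrophage covariate, 3 with a mean of at least 5 FPKM, and 5 with no filter, with the compared groups alone and with the GC correction. In controls the count stayed between 2 and 4. For the difference between knockout effects it was 0 in all 26 alternatives, and fitting the compared groups alone is there the same fit. The call of Gamt in controls between temperatures was lost with no filter (adjusted p = 0.0585), the compared groups alone (0.0580), the macrophage covariate (-0.49, adjusted p = 0.343) and the GC correction. Alpl there gained a call with sample weights (-0.39, adjusted p = 0.0459).

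Signs changed as follows, all where the difference in the main fit was small or imprecise. For Gatm, macrophage covariate: -0.13 between genotypes at 22 °C and 0.30 between temperatures in controls, where quantile normalization gave 0.0902; leaving out animals spanned -0.0668 to 0.24 and -0.23 to 0.0828. For Gamt, 0.0718 between genotypes at 22 °C without the R controls and -0.28 at 30 °C with the macrophage covariate. For Ckmt2 between genotypes at 22 °C, 0.58 with sample weights and 0.87 without the R controls; at 30 °C, -0.21 with the muscle covariate and -0.70 to 2.29 leaving out animals; between temperatures in controls, 0.30 with a pseudocount of 0.1, 0.0468 with quantile normalization, 0.0264 with GC correction and -1.82 to 1.17 leaving out animals; for the difference of effects, 0.0845 with the muscle covariate. For Alpl, -0.0799 to 0.23 between genotypes at 22 °C leaving out animals, 0.0246 at 30 °C with FPKM as deposited, 0.0734 between temperatures in controls with GC correction; in knockouts 0.12 with quantile normalization, 0.00782 with sample weights, 0.13 with the macrophage covariate, 0.56 with GC correction and -0.16 to 0.16 leaving out animals. The difference of knockout effects spanned -0.0687 to 0.24 for Slc6a8 and -0.17 to 0.35 for Ckb leaving out animals, and for Ckb was -0.0400 with quantile normalization and -0.13 with the macrophage covariate.

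The Ckmt2 share turned to 2.37 points between genotypes at 22 °C and -4.80 points between temperatures in controls without the R controls, and to 0.336 points at 30 °C with Ckm in the denominator. Leaving out single animals it spanned -28.0 to -8.76 and -10.9 to 7.82 points between genotypes at 22 °C and 30 °C, and 6.33 to 27.2 and -5.33 to 4.60 between temperatures in controls and knockouts. No paired analysis was possible because the animal identifiers pair no animals across groups. Ckmt1 at 22 °C rests on at most 1 fragment per library. Scaling also moved the split of all calls into higher and lower. Between genotypes at 22 °C it was 119 and 139, but 3167 and 81 with FPKM as deposited and 386 and 75 with equal totals; at 30 °C it was 1154 and 691, but 4280 and 291, 2225 and 409, and 887 and 935 with quantile normalization and 898 and 1014 with GC correction. Between temperatures it was 2384 and 2688 in controls, but 1738 and 3200 with FPKM as deposited, and 2725 and 2221 with quantile normalization and 1656 and 1271 with GC correction; in knockouts it was 2850 and 3839, but 4203 and 2923 and 3220 and 2322 with the last pair.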

Other observations

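Other cell types were read from marker lists in the same fit. The share of all genes called was 1.97% and 14.1% between genotypes at 22 °C and 30 °C, with 8.82% called higher at 30 °C. Called lower at 22 °C than at 30 °C were 20.6% of all genes in controls and 29.4% in knockouts. Of 14 brown adipocyte markers, 0 rose and 7 fell in knockouts at 30 °C, while at 22 °C 1 rose and 1 fell. Fibroblast and progenitor markers rose in knockouts at 30 °C in 6 of 9 tested, with summed levels of 324 to 384 scaled FPKM in controls and 533 to 1080 in knockouts. Endothelial marker sums were 436 to 459 and 805 to 892 in the same groups, and the rise was that of Cldn5, a tight junction protein, from a mean of 104 to 547 scaled FPKM (log2 2.39, SE 0.34, adjusted p = 0.00119). Of the 10 endothelial markers, 7 had log2 fold changes below 0, with a median of -0.21 and none called lower. White adipocyte markers were lower at 22 °C than at 30 °C in 3 of 5 tested in controls and 2 of 5 in knockouts.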
